A study of Rattus norvegicus with 8 samples.

Results

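Matricellular and elastic fibre genes are represented here by 10 genes: Postn, Fn1, Sparc and Ccn2, which encode secreted or adhesive matrix proteins, Eln, Fbn1 and Lox, which build the elastic fibre, Timp1 and Mmp2, which govern matrix turnover, and Pdgfra, a growth factor receptor of connective tissue cells. The genes were chosen with earlier results of these data known. Their probes were found by gene symbol, and each gene matched exactly 1 of the 22523 probes of the array table, so there were 10 probes for 10 genes. Of these, 9 were measured above background on all 8 arrays and entered the test among 10212 probes, and Mmp2 was above background on 2 arrays and was not tested. The arrays measured thigh skeletal muscle of Wistar Han rats, 1 array per rat: 4 control rats were fed standard laboratory chow, and 4 rats were fed 150 ppm of the sulfonyl isoxazoline compound 177 for 28 days. The control arrays are labelled with the same 28 days, and neither group carries any genetic change in the labels. No age or sex of the rats was taken from the labels. The RNA came from whole pulverized muscle, so every cell type of the muscle contributed to it.

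Muscle fibres are embedded in connective tissue that is made mainly by fibroblasts and fibro-adipogenic cells, and at the ends of the muscle by tendon cells. Matricellular proteins are secreted into this matrix and act less as building material than as organisers: they bind collagen and cell-surface integrins and tune adhesion and growth factor signals. Elastic fibres consist of crosslinked elastin laid down on fibrillin microfibrils, and lysyl oxidase performs the crosslinking. Metalloproteinases cleave matrix proteins and the tissue inhibitors block them. The study's title places compound 177 among experiments on mitochondrial toxicity in skeletal muscle, and the comparison here asks whether these matrix genes differed in level between treated and control muscle.

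Across the 9 tested genes the mean level was lower in rats fed compound 177 in 9 of 9, with differences from -1.30 for Postn to -0.27 for Sparc on the log2 scale and a median of -0.53, a 1.44-fold lower level. Over all tested probes the median difference was 0.013, and 46.6% of the probes had a difference below 0. None of these differences passed the test. In limma's moderated test 0 of 9 genes had an adjusted p below 0.05, against 0% of all probes, and 0 of 9 had an unadjusted p below 0.05, against 3.88% of all probes. In none of the 9 genes were the 4 treated values separated from the 4 control values, against 2.41% of all probes with groups that did not overlap. The values were separated for 2 genes without control replicate 4, against 6.02% of all probes, and for 2 without both arrays numbered 4, against 8.78%. With 2 rats a group, Eln and Lox were separated within set 1, against 34.4% of all probes, and Timp1 within set 2, against 32.8%, the sets being those in which the authors normalized the arrays. Single arrays moved the unadjusted count: without control replicate 4 it was 4 genes (Postn, Eln, Fbn1 and Lox), against 4.71% of all probes, and without compound 177 replicate 1 it was 4 (Postn, Fn1, Ccn2 and Fbn1), against 5% of all probes. Averaged over the 9 genes, these were the lowest control and the highest treated array, so leaving out either widens the average difference. Without compound 177 replicate 3 the count was 1 (Postn), against 559 of the 10212 probes. It was 0 without any other single array, against 260 to 370 of the 10212 probes. All genes in these counts had an adjusted limma p above 0.05. A difference of -0.5 or lower was found in 5 of 9 genes (Postn, Fn1, Eln, Fbn1 and Lox) and in 1.91% of all probes. The genes share their rats and much of their variation, so 9 genes with the same sign are not 9 separate observations. They were also chosen with earlier results of these data known, so the shares over all probes are no test of the set. All levels and differences below are on the log2 scale after background correction and quantile normalization, and each difference is the treated mean minus the control mean over 4 rats per group.

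The arrays had median intensities of 97.5 to 124.7, and 9261 to 10620 probes per array had a detection p below 0.05, the detection p being the authors' measure of signal above negative controls. Control replicate 2 and compound 177 replicate 2 had the lowest array weights in limma (0.572 and 0.541, others 0.958 or more) and the fewest detected probes (9634 and 9261). Replicates 1 and 2 of both groups had been normalized by the authors as 1 set and replicates 3 and 4 as another, and differences within each set are given beside the pooled ones. The 5 skeletal muscle markers with a probe all passed the detection filter, among them Acta1 at 15.56 in control and 15.57 in treated muscle, and 0 of the 4 skin and epithelial markers with a probe passed the detection filter.

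Promoter sequences from RefSeq (GRCr8) could be matched for 6 of the 10 genes. Those of Ccn2, Postn and Sparc are shown, Ccn2 because it is a textbook target of the YAP and TEAD factors, Postn because its difference was the widest of the set and Sparc because its difference was the smallest. Each runs 5′ to 3′ on the gene's own strand, from 250 bases before to 50 after the start that the promoter table uses. For Ccn2 and Sparc that start is the first base of the gene as given below, whereas for Postn it is position 140678061, which lies 287 bases inside the gene, so the Postn window falls wholly within it. Capitals mark matches on either strand to GGAATG (TEAD), CAGACA (SMAD), TATAAA (the core of the TATA box) and GGGCGG (SP1). The Ccn2 promoter lies at chr1:22624565-22624864 on the minus strand, that of Postn at chr2:140677811-140678110 on the plus strand and that of Sparc at chr10:40038767-40039066 on the minus strand.
Ccn2: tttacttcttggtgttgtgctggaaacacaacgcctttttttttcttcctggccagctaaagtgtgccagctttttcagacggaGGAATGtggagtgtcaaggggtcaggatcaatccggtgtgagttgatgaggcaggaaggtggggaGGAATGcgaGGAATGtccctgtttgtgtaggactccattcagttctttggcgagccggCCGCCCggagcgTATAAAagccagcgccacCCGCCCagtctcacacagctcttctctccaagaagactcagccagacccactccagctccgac
Postn: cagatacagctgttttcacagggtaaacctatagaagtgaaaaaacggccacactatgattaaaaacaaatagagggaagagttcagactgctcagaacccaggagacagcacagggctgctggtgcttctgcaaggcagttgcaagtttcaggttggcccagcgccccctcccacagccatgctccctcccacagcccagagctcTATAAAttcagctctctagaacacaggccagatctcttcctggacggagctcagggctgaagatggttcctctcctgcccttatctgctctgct
Sparc: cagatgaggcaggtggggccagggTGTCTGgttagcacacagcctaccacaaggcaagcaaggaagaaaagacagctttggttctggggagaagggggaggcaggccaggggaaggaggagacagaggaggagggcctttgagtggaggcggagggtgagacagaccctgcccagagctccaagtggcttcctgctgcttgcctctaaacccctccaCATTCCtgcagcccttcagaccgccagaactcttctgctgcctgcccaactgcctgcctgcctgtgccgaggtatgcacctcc
The Ccn2 sequence holds 3 copies of GGAATG, starting at positions -166, -101 and -92 from the table's start, and a TATAAA at -31. At least 3 copies of GGAATG were found in 0.0956% of the 33469 promoters of this length, and at least 1 copy in 14.2%. The Postn sequence holds a TATAAA at -44 from its table start, a motif found in 14.2% of all promoters. The Sparc sequence holds GGAATG on the opposite strand at -33 and CAGACA on the opposite strand at -226, the latter found in 21.1% of all promoters. GGAATG was also in the Timp1 promoter, GGGCGG in those of Timp1 and Ccn2, CAGACA in that of Fbn1 and TGANTCA (AP-1) in that of Pdgfra. The table starts of Pdgfra, Fbn1 and Timp1 lie 88, 887 and 1456 bases inside their genes. The shares over all promoters were 33.1% for GGGCGG and 7.33% for TGANTCA. GTCTAGAC, a palindromic SMAD motif that overlaps none of the others, and the CArG box were in none of the 6 windows, against 0.197% and 1.64% of all promoters. These matches are descriptions of letters in a window.

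Postn, the integrin-binding matrix protein periostin (chromosome 2, 140677774 to 140709304, GRCr8), read 10.18, 10.74, 10.72 and 9.42 in control replicates 1 to 4 and 10.42, 7.77, 9.73 and 7.94 in compound 177 replicates 1 to 4. Treated replicates 2 and 4 lay below every control, whereas treated replicate 1 lay inside the control range. The control mean was 10.27 ± 0.62 and the treated mean 8.96 ± 1.31 (SD, n = 4), a difference of -1.30 (SE 0.59, 95% confidence interval -2.62 to 0.01), or 2.46-fold lower. The unadjusted limma p was 0.0521 and the adjusted p 0.9999. Within the sets the difference was -1.37 and -1.24, and without both arrays numbered 2 it was -0.75. Postn had the widest difference of the 9 genes, and 0.15% of all tested probes had a lower one. This share is no test, because the gene was chosen with earlier results of these data known. The within-group SD of Postn was larger than that of 99.2% of tested probes. Postn also had the widest treated range of the 9, at 2.65 log2 units.

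Fn1, fibronectin, the adhesive glycoprotein through which cells grip the matrix (chromosome 9, 80645507 to 80714200), read 11.32, 12.06, 11.19 and 10.56 in the controls and 11.60, 9.91, 10.77 and 9.31 in the treated rats. The order of the treated rats was close to that for Postn: replicates 2 and 4 were below all controls and replicate 1 was above 3 of them. The means were 11.28 ± 0.62 and 10.40 ± 1.00, a difference of -0.88 (SE 0.48, interval -1.96 to 0.19, unadjusted limma p 0.0952), with -0.93 in set 1 and -0.84 in set 2. Without compound 177 replicate 4 it was -0.52, and without both arrays numbered 2 it was -0.46.

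Sparc, the collagen-binding matricellular protein osteonectin (chromosome 10, 40017065 to 40038816), read 12.97, 13.08, 13.19 and 12.73 in the controls and 13.06, 11.99, 13.13 and 12.69 in the treated rats. Treated replicate 2 alone stood clearly below the controls, and treated replicate 4 was within 0.05 of the lowest control. The difference was -0.27 (SE 0.24, interval -0.82 to 0.27), the narrowest of the set, with -0.50 in set 1 and -0.05 in set 2. Without compound 177 replicate 2 it was -0.03, and without control replicate 2 it was -0.25, so the treated array carried nearly all of it. It was -0.41 without compound 177 replicate 3 and -0.0013 without both arrays numbered 2.

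Ccn2, formerly connective tissue growth factor, a secreted protein induced by TGF-beta and by mechanical signals (chromosome 1, 22621498 to 22624614), read 11.82, 12.15, 11.93 and 11.21 in the controls and 12.27, 11.43, 11.24 and 10.68 in the treated rats. Here the highest and the lowest of the 8 values were both from treated rats, replicates 1 and 4. The difference was -0.37 (SE 0.32, interval -1.09 to 0.35), with -0.13 in set 1 and -0.60 in set 2. Without compound 177 replicate 1 it was -0.66, and without compound 177 replicate 4 it was -0.13. Leaving out a control gave -0.24 without replicate 2 and -0.56 without replicate 4.

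**Figure D1:**
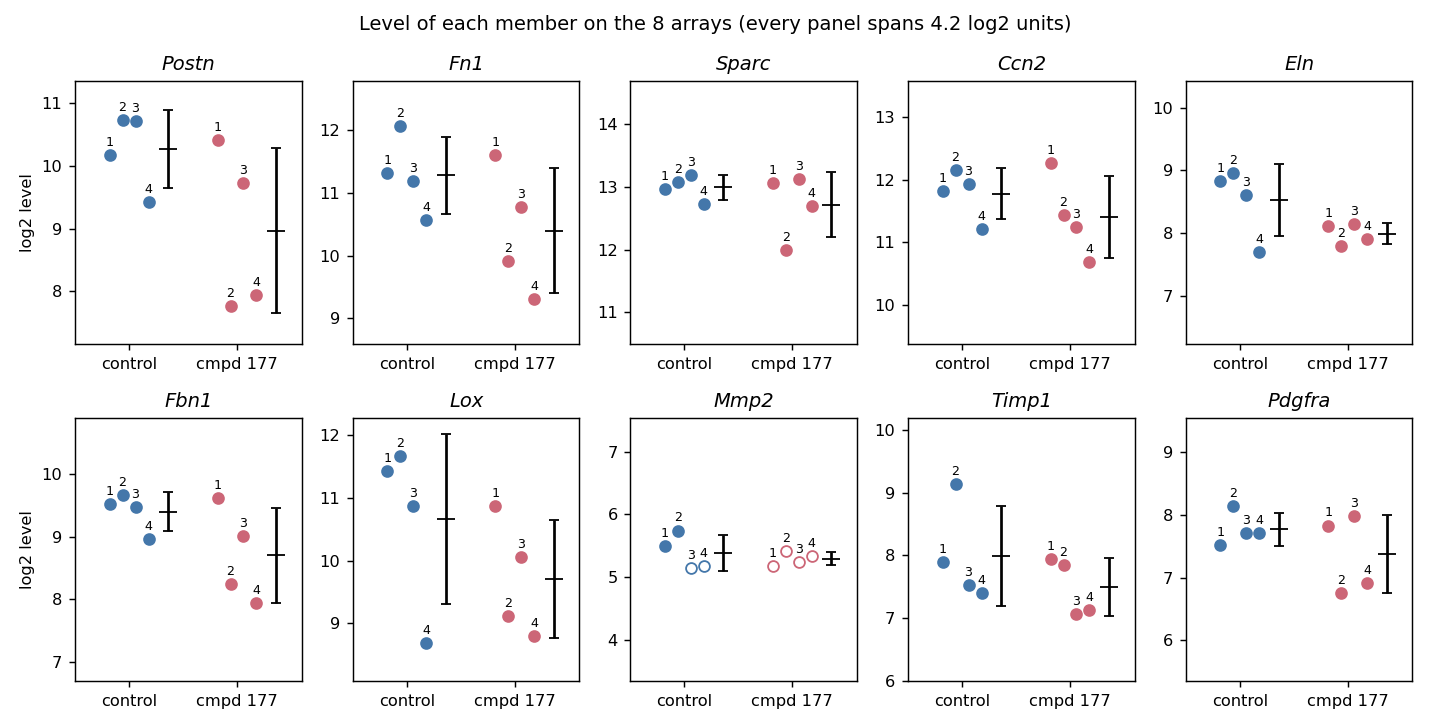
Log2 level (y) of each of the 10 genes on the 4 control and 4 compound 177 arrays (x); points are single rats with their replicate number, open points had a detection p of 0.05 or more, and the bar beside each group is its mean ± SD (n = 4). The groups overlap in every panel, and treated replicates 2 and 4 are the lowest 2 of the 8 values for Postn, Fn1, Sparc, Fbn1 and Pdgfra.

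Of the elastic fibre genes, Eln, which encodes tropoelastin (chromosome 12, 27604983 to 27648413), read 8.83, 8.96, 8.60 and 7.69 in the controls and 8.11, 7.79, 8.15 and 7.91 in the treated rats. Control replicate 4 was the lowest of the 8 values, and the other 3 controls were above every treated rat. The treated values were close together, with an SD of 0.17 against 0.58 in the controls. The difference was -0.53 (SE 0.26, interval -1.10 to 0.05, unadjusted limma p 0.0673), and it was -0.95 in set 1 and -0.11 in set 2. Without control replicate 4 it was -0.81, with an unadjusted p of 0.000467 and an adjusted p of 0.9529. Without both arrays numbered 2 it was -0.31.

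Fbn1, fibrillin-1, the scaffold of the microfibril (chromosome 3, 133007693 to 133204277), read 9.52, 9.66, 9.47 and 8.96 in the controls and 9.62, 8.24, 9.01 and 7.94 in the treated rats. Its pattern followed that of Postn and Fn1, with treated replicates 2 and 4 below all controls and treated replicate 1 second only to control replicate 2. The means were 9.40 ± 0.30 and 8.70 ± 0.76, a difference of -0.70 (SE 0.34, interval -1.46 to 0.06, unadjusted limma p 0.0679), with -0.66 in set 1 and -0.74 in set 2. Without compound 177 replicate 4 it was -0.44, and without both arrays numbered 2 it was -0.46.

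Lox, lysyl oxidase, the enzyme that crosslinks elastin and collagen (chromosome 18, 48162889 to 48175640), read 11.43, 11.67, 10.87 and 8.69 in the controls and 10.87, 9.11, 10.05 and 8.80 in the treated rats. The spread was widest here: the controls covered 2.98 log2 units, and the lowest of the 8 values was a control, replicate 4. The difference was -0.96 (SE 0.67, interval -2.46 to 0.53), with -1.56 in set 1 and -0.36 in set 2. Without control replicate 4 it was -1.62, without control replicate 2 it was -0.63, and without both arrays numbered 2 it was -0.43.

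Timp1, an inhibitor of metalloproteinases (chromosome X, 3766509 to 3772578), read 7.90, 9.13, 7.52 and 7.39 in the controls and 7.94, 7.84, 7.06 and 7.12 in the treated rats. Control replicate 2 stood apart at the top, and treated replicates 3 and 4, rather than 2 and 4, were the lowest values. The difference was -0.49 (SE 0.38, interval -1.34 to 0.36), with -0.62 in set 1 and -0.36 in set 2. It was -0.11 without control replicate 2, so this array carried most of it.

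Mmp2, gelatinase A, a metalloproteinase (chromosome 19, 30327643 to 30355856), was near background throughout, with deposited intensities of 94.4 to 125.3 on the 8 arrays. Its detection p was 0.036 and 0.024 in control replicates 1 and 2 and 0.067 to 0.13 on the other 6 arrays. Mean levels were 5.39 in control and 5.29 in treated muscle, but no treated array was above background, and no fold is given because the control mean did not exceed 5.42, the treated mean once values are raised to the lowest detectable signal of each array.

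Pdgfra, the alpha receptor for platelet-derived growth factor and a marker of fibro-adipogenic cells (chromosome 14, 33360027 to 33408604), read 7.52, 8.14, 7.71 and 7.71 in the controls and 7.83, 6.76, 7.98 and 6.92 in the treated rats. The treated rats split into a pair inside the control range, replicates 1 and 3, and a pair below it, replicates 2 and 4. The difference was -0.40 (SE 0.28, interval -1.04 to 0.24), with -0.54 in set 1 and -0.26 in set 2. It was -0.20, -0.60 and -0.25 without compound 177 replicates 2, 3 and 4, and -0.07 without both arrays numbered 2.

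**Figure D2:**
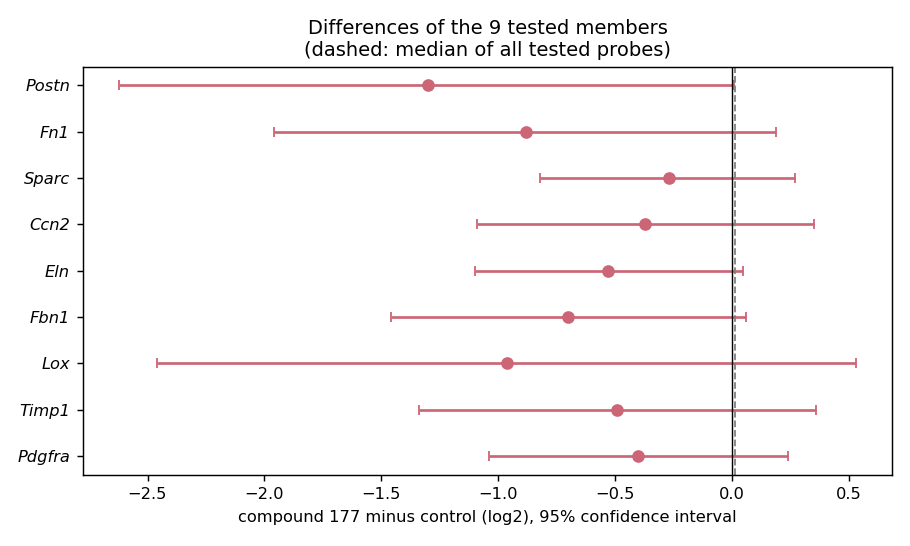
Difference of the 9 tested genes, compound 177 minus control on the log2 scale (x), with the 95% confidence interval from limma (n = 4 rats per group); the dashed line is the median of all tested probes, 0.013. Every point is below 0 and every interval reaches above 0.

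The same rats were high or low for most of the 9 genes. Control replicate 2 held the highest value of 7 genes, and compound 177 replicate 4 was among the lowest 3 arrays for 9 of 9. Compound 177 replicate 2 was among the lowest 3 for 7 genes and control replicate 4 for 8. Averaged over the 9 genes, the deviation from the mean of the 8 arrays was 0.42, 0.88, 0.39 and -0.37 in control replicates 1 to 4 and 0.45, -0.76, -0.07 and -0.93 in compound 177 replicates 1 to 4. The group averages of this deviation were 0.33 ± 0.52 and -0.33 ± 0.64 (SD, n = 4), so 1 treated rat was at the level of the high controls and 1 control rat was lower than 2 of the treated ones. The within-group SD of the 9 genes had a median of 0.58, against 0.22 for all tested probes and 0.19 for the 4709 probes whose mean level fell within the range of these genes. The SD of Lox was larger than that of 99.4% of tested probes, that of Postn than 99.2% and that of Sparc, the smallest of the 9, than 85.7%.

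Replicate numbers are shared by the 2 groups. Over the tested probes, deviations of same-numbered arrays from their group means correlated at 0.12 to 0.47. Of the 8 arrays, 6 correlated best with the array of their own number in the other group. The labels do not give this pairing. Between same-numbered rats, treated minus control, 9 of 9 genes were lower for number 2 (median -1.38, range -2.97 to -0.72), 8 for number 3 (median -0.46) and 7 for number 4 (median -0.52). For number 1 the direction was mostly the other way, with 7 of 9 genes higher and a median of 0.10, and Eln (-0.72) and Lox (-0.56) were the exceptions. Each of these counts rests on 1 array per group, and no share over all probes is given for them, so they are descriptions only. For Postn the same-number differences were 0.24, -2.97, -0.99 and -1.48. With the replicate number as a block, 5 of 9 genes (Postn, Fn1, Eln, Fbn1 and Lox) had an unadjusted limma p below 0.05, against 2.88% of all probes that were lower at that p. In either direction 657 of the 10212 probes had such a p in this fit, against 396 in the main fit. With this block 0 of 9 genes had an adjusted limma p below 0.05, the smallest being 0.7445. Without both arrays numbered 2 the median difference over the 9 genes was -0.31, and 0 of 9 had an unadjusted limma p below 0.05, against 2.73% of all probes. Without number 1 this count was 3 (Postn, Fn1 and Fbn1), against 371 of the 10212 probes. Without number 3 it was 0, against 354 probes, and without number 4 it was 2 (Eln and Lox), against 357. The adjusted limma p of these genes stayed above 0.05.

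Markers of connective tissue cells varied across the rats in a like manner. Of 11 fibroblast and fibro-adipogenic markers (members left out), 10 were tested and 10 had a lower mean in treated muscle (median -0.49), with a summed signal of 28623 to 44009 in control and 17603 to 45097 in treated rats. They included the small proteoglycan Dcn (-0.52, SE 0.30) and Pi16 (-0.86, SE 0.42), and Clec3b had no probe under its symbol. Their average deviation was lowest in compound 177 replicates 4 (-0.87) and 2 (-0.59) and in control replicate 4 (-0.19). Col1a1 and Col3a1 of this list are also counted among the collagen chains below. Cd34, counted as lower at -0.05, was close to the lowest detectable signal (5.32 to 5.55 per array), with means of 5.67 in control and 5.61 in treated muscle. Of 8 tendon markers, 5 were tested and 4 were lower (median -0.75), among them the tendon gene Tnmd (-0.75, SE 0.80), and Chad differed by 0.05. Their summed signal ran from 3163 to 12375 in control and from 1697 to 14820 in treated rats, with average deviations of 1.49 in compound 177 replicate 1 and -1.79 in compound 177 replicate 4. The tendon regulators Scx and Mkx had no probe under their symbols. The part of tendon or fibroblast content in the differences above was not tested. In whole muscle, fewer cells of a type and less RNA per cell cannot be told apart.

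Other cell types gave further measurements on the same arrays. The 5 tested macrophage markers of 8 were lower in 5 of 5 (median -0.58, summed signal 1199 to 1938 in control and 526 to 1738 in treated rats), including the complement gene C1qb (-0.79, SE 0.36), and their part was not tested. Endothelial markers had a median of -0.08 over 5 tested of 8, but 1 of them, Plvap, which encodes a protein of endothelial pores, differed by -0.59 (SE 0.22) with an unadjusted limma p of 0.0228, smaller than that of any of the 9 matrix genes. Smooth muscle and pericyte markers had a median of -0.16 over 5 tested of 9. Slow-fibre genes had a median of -1.52 over 6 of 6, with the slow myosin heavy chain Myh7 at -1.71 (SE 0.75, unadjusted limma p 0.0483). Their average deviations were -1.07, 1.15, 1.02 and 1.55 in control replicates 1 to 4. In compound 177 replicates 1 to 4 they were 1.2, -1.23, -1.73 and -0.89. The sign was opposite to that of the matrix genes in control replicates 1 and 4 and the same on the other arrays. Adipocyte markers had a median of 0.04 over 3 tested genes, with the fatty acid binding protein gene Fabp4 at 0.25 (SE 0.10, unadjusted limma p 0.0337). Schwann cell markers had a median of -0.32 over 4, with the neurotrophin receptor Ngfr at -0.28 (SE 0.10, unadjusted limma p 0.0246), and blood markers -0.28 over 3. Ngfr was close to the lowest detectable signal of the arrays (5.32 to 5.55), with means of 5.84 in control and 5.56 in treated muscle. The adjusted p of these 4 named marker genes was 0.9999, and their part in the differences of the matrix genes was not tested. General muscle markers varied little, with average deviations between -0.15 and 0.19.

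**Figure D3:**
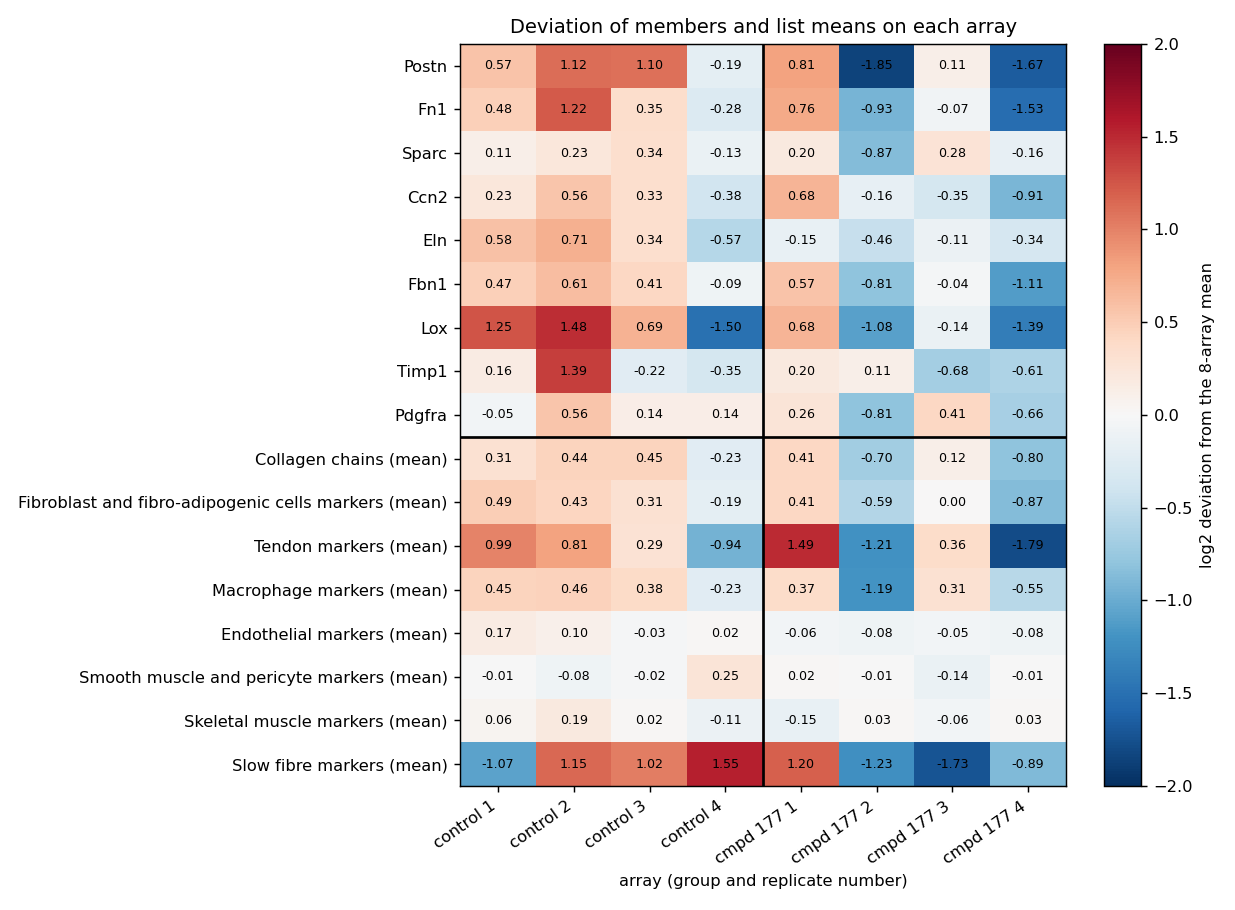
Log2 deviation from the mean of the 8 arrays (colour and printed value) for each tested gene above the horizontal line and for the averages of marker and collagen lists below it; columns are arrays, with controls left of the vertical line. Compound 177 replicates 2 and 4 are low and compound 177 replicate 1 is high for most of the genes. The same holds for the collagen, fibroblast, tendon, macrophage and slow-fibre lists, of which the collagen and fibroblast lists share Col1a1 and Col3a1.

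Across 7 lists, related genes of the matrix and its signalling numbered 108, of which 65 were tested besides the members and collagens. Of these 52 were lower and 13 higher in treated muscle, that is 80.0% lower against 46.6% of all probes, with a median of -0.18. None passed the test: 0 of 65 had an adjusted limma p below 0.05, and at an unadjusted p below 0.05 there were 3 lower, against 1.62% of all probes, and 0 higher. Genes close to the lowest detectable signal (5.32 to 5.55 per array) are counted on both sides. Lower ones include Fbn2, Mmp16 and Tgfbr3, with treated means of 5.59, 5.38 and 5.47. Higher ones include Mmp9 and Adam10, with treated means of 5.85 and 5.68. The lists were chosen with earlier results of these data known.

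Among the other matricellular genes 8 of 9 tested were lower, with a median of -0.33. Spp1, the phosphoprotein osteopontin, differed by -0.97 (SE 0.52) and the thrombospondin Thbs4, which is also in the tendon list, by -0.91 (SE 0.61). Spp1 was dim, with means of 6.6 in control and 5.62 in treated muscle, the lowest detectable signal being 5.32 to 5.55 per array. Within the CCN family Ccn3 differed by -0.77 (SE 0.53) and Ccn1, like Ccn2 a textbook YAP target, by 0.20 (SE 0.36). Among elastic fibre and microfibril genes 10 of 11 were lower (median -0.22). The microfibril-associated Mfap5, which is in the fibroblast list too, was among the 3 with an unadjusted limma p below 0.05, at -0.83 (SE 0.33, p 0.0335), and the fibulin Efemp1 differed by -0.64 (SE 0.37). Fbln5, a fibulin that guides elastin assembly, differed by -0.07 (SE 0.15).

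Crosslinking and collagen-processing enzymes were lower in 11 of 13 (median -0.10), with the Lox relatives Loxl1 at -0.58 (SE 0.32) and Loxl2 at -0.69 (SE 0.48) and the collagen lysyl hydroxylase Plod1 at -0.07 (SE 0.11). Metalloproteinases and their inhibitors were lower in 8 of 11 (median -0.34). Adamts2, the procollagen peptidase, differed by -0.48 (SE 0.26), the aggrecanase Adamts5 by -0.36 (SE 0.19), Timp2 by -0.56 (SE 0.34) and Adamts1 by 0.24 (SE 0.13). Receptors for fibronectin and basement membrane genes were lower in 6 of 6 (median -0.27), among them Itgb1, the common beta chain of many integrins, at -0.28 (SE 0.12, unadjusted limma p 0.0476) and the laminin chain Lamc1 at -0.41 (SE 0.22).

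Among signalling genes, those of TGF-beta and YAP had the median nearest to 0 of the 7 lists. Of them, 7 of 12 were lower, and the median was -0.07. The ligands Tgfb1, Tgfb2 and Tgfb3 differed by -0.19 (SE 0.34), 0.15 (SE 0.18) and 0.04 (SE 0.12), the receptor Tgfbr1 by 0.02 (SE 0.12) and Ctnnb1, beta-catenin, by -0.15 (SE 0.16). The widest difference of this list was that of Ankrd1, a stretch-responsive muscle gene, at -0.90 (SE 0.64). For the receptor Pdgfra the ligand Pdgfa differed by -0.35 (SE 0.12, unadjusted limma p 0.0150) and the ligand Pdgfc by 0.26 (SE 0.18). Pdgfc was near the lowest detectable signal, with means of 5.82 in control and 6.08 in treated muscle. The 8 tested collagen chains, set beside these genes for orientation, were lower in 8 of 8 with a median of -0.61, from -0.77 for Col1a1 to -0.04 for Col15a1. Col5a1 differed by -0.71 (SE 0.28) and Col5a2 by -0.62 (SE 0.31).

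**Figure D4:**
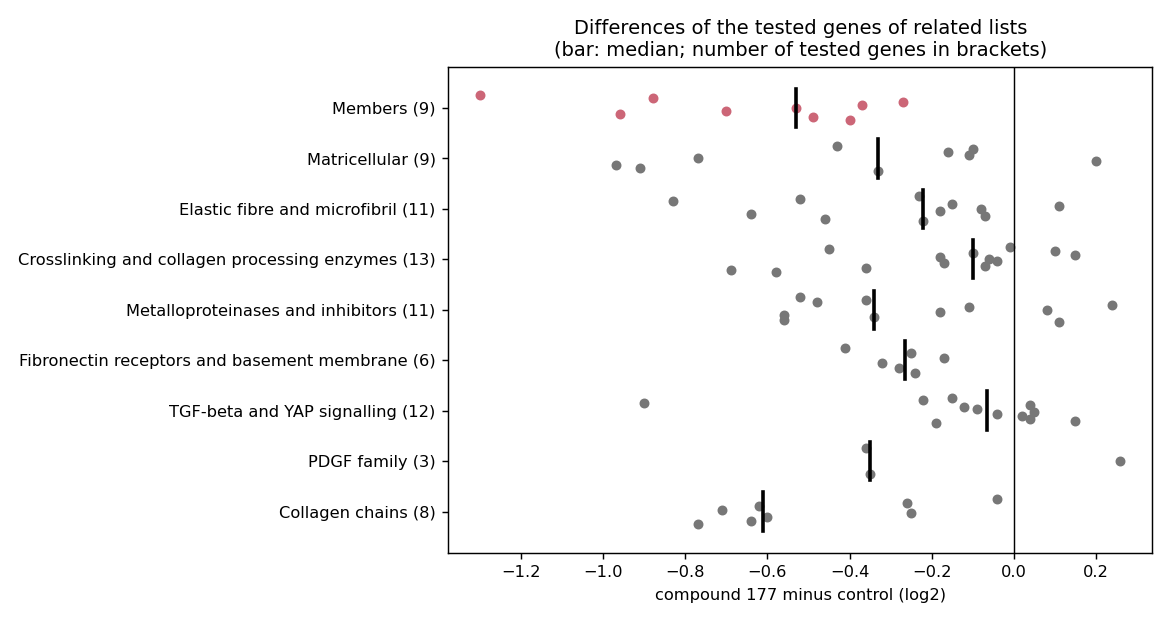
Difference of each tested gene, compound 177 minus control on the log2 scale (x), for the 9 genes (top row) and for related lists (rows, with the number of tested genes); bars are medians. The medians run from -0.61 for collagen chains to -0.07 for TGF-beta and YAP signalling, with the 9 genes at -0.53.

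Of 7290 other named genes tested, the 6 whose levels over the 8 arrays were most like the average of the 9 genes were Thbs4 (Pearson r 0.984), Dhcr7 (0.979), Mxra8 (0.976), Aebp1 (0.976), Gda (0.974) and Mmp14 (0.969). These values describe likeness over 8 arrays that share the group difference, and they are the highest of a search over all these genes, so no p is given. Deviations from each group's own mean gave 0.99, 0.97, 0.98, 0.97, 0.97 and 0.96 in the same order. Aebp1, a collagen-binding secreted protein, had the widest group difference of the 6, at -0.99 (SE 0.41). Mmp14, the membrane metalloproteinase that activates the Mmp2 proenzyme, differed by -0.56 (SE 0.32). Dhcr7, the last enzyme of cholesterol synthesis, differed by -0.33 (SE 0.18), and Gda, guanine deaminase, by -0.31 (SE 0.22). Each of the 9 genes was also set against the average of the other 8: r was 0.98 for Fn1, 0.96 for Fbn1, 0.93 for Postn and 0.91 for Lox, and it was lowest for Timp1 (0.59) and Sparc (0.70).

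**Figure D5:**
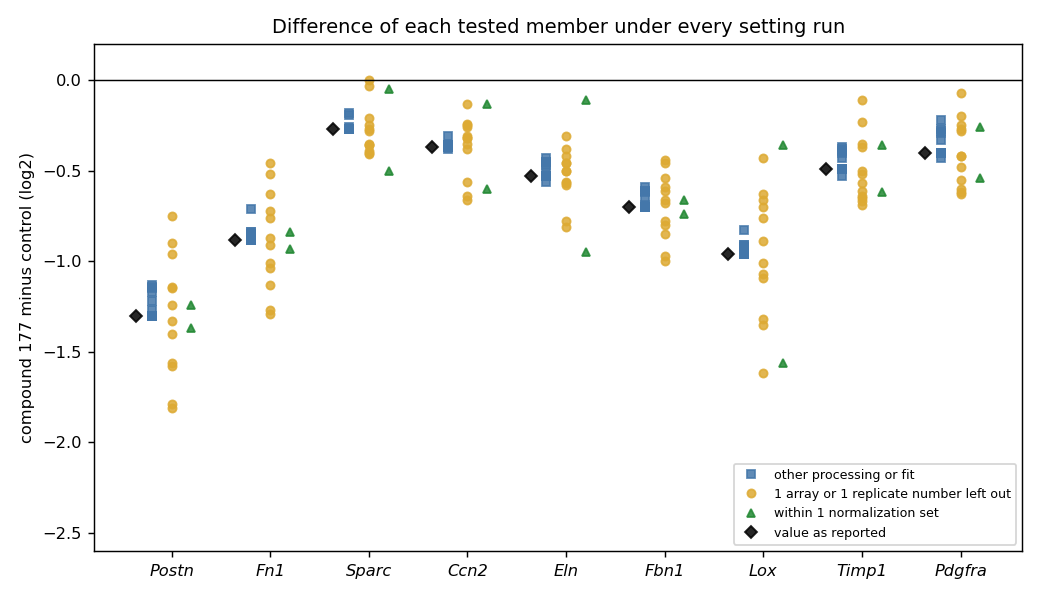
Difference of each tested gene, compound 177 minus control on the log2 scale (y), as reported and under every other processing or fit, with 1 array or 1 replicate number left out, and within each normalization set. The 25 values of each gene stay below 0, that of Sparc without both arrays numbered 2 being -0.0013. The other filters and the blocks leave each value unchanged by design.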

How the data were processed

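The authors deposited a non-normalized table of linear probe intensity from Illumina rat bead arrays, with a detection p-value per probe and array, per the file headers. In the data the smallest detection p above 0 was about 1 in 825. Their deposited normalized intensity table, whose sorted values are identical within replicates 1 and 2 and within replicates 3 and 4, served as an alternative. Which scanner software and background step were used is not given in the sources used here.

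Intensities were corrected and quantile-normalized to log2 with neqc of limma 3.58.1 (R 4.3.3; offset 16). Probes with a detection p below 0.05 on at least 4 of 8 arrays were tested (10212) with lmFit and eBayes and Benjamini-Hochberg adjustment, and the code was tested on simulated data. Symbols came from the platform annotation: 13793 probes had 1 symbol, 0 several and 8730 none, and 13752 matched GRCr8 by gene identifier. A gene with several probes took the one with the highest mean. Replicates were taken as separate animals, since the design text gives 4 rats per group.

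Same-numbered arrays of the 2 groups deviated together (correlations 0.24, 0.47, 0.12 and 0.43), so the number was taken as pairing in an alternative fit. This pairing comes from the data, not the labels. Members, lists and naming rule (all members, the 2 genes with the smallest p of each related list, the 6 most alike; other related genes and cell type markers were named after their values were seen) were chosen with earlier results of these data known. The number of arrays limits precision, with a median SE of 0.16 over all probes.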

Additional observations from a re-analysis of the deposited data

How the results depend on the processing

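The sign of all 9 differences was kept in 24 of 24 other settings per gene, and 0 genes reached an adjusted p below 0.05 in any fit, the sets being compared as values only. Either other filter, and the replicate number or normalization set as a block, leave each difference unchanged by design. The sign could not turn in those settings. The median over the 9 genes was -0.45 with normexp correction, -0.43 without background correction, -0.56 with median scaling, -0.45 in the authors' normalized table, -0.48 with an offset of 50, -0.53 with either other filter and -0.47 with array weights. It was -0.66 within set 1 and -0.36 within set 2. Leaving out 1 array at a time gave -0.81 to -0.38, and leaving out both arrays of a number, chosen after seeing the data, gave -0.67 to -0.31. The groups were separated for 0 genes under the other background treatments, scaling, offset, filters and the authors' table, a count added after seeing the data. They were separated for 2 genes without control replicate 4, against 6.02% of all probes, and for 2 without both arrays numbered 4, against 8.78%. They were separated for 0 without any other array or number. Within set 1 they were separated for 2, against 34.4% of all probes, and within set 2 for 1, against 32.8%. With the replicate number as a block the median was -0.53 and no call changed, with 657 probes at an unadjusted p below 0.05 in place of 396. The normalization set as a block gave -0.53 and 560 such probes, and median scaling gave 126. Without both arrays numbered 1, 6 probes passed over all probes, 0 of them among the 9 genes. Leaving out 1 array, Timp1 ran from -0.69 to -0.11, Ccn2 from -0.66 to -0.13, Pdgfra from -0.60 to -0.20, Lox from -1.62 to -0.63 and Fn1 from -1.29 to -0.52, and Fbn1 reached -0.44. Array weights gave -0.22 for Pdgfra and -0.18 for Sparc. For Postn the unadjusted p was 0.0452 to 0.0494 with median scaling, either other background treatment or the authors' table, against 0.0521 as reported. The causes were not tested. Mmp2 was limited by its signal near background.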
